A study of Mus musculus with 6 samples.

Results

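The transcriptome of wild-type (WT) mouse bone marrow-derived macrophages after 24 h with lipopolysaccharide (LPS) was compared with that of the same kind of cells at 0 h. The comparison was the difference of log2(FPKM + 1) between the 2 libraries, where FPKM is a level of sequenced fragments scaled for transcript length and for the size of the library. It covered every gene at 1 FPKM or more in either library, which were 11044 of the 17904 genes in the table. Both groups were WT for Setd2, of the C57BL/6 strain and 8 weeks old, and their marrow was grown with the growth factor M-CSF for 5 days. One group received 100 ng/ml LPS for 24 h and the other was collected at 0 h. There was no library of cells kept for 24 h without LPS. Effects of LPS and of the added time in culture can therefore not be told apart. The series also holds WT cells after 12 h with LPS and Setd2-KO cells at 0, 12 and 24 h, made in the same way, for 6 libraries in all. The Setd2 allele is not described in the sources used here. Each group is 1 library. Differences therefore come without replicate error, replicate check or test, and every call below is a rule of size. The labels do not say whether the libraries share an animal or a culture. In bulk RNA, fewer cells of a type and less RNA per cell cannot be told apart.

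LPS is a component of the outer membrane of Gram-negative bacteria. Macrophages bind it with CD14 and sense it with TLR4 and its partner MD-2, and the adaptors MyD88 and TRIF carry the signal on. MyD88 leads to NF-kB and AP-1, which drive cytokine and chemokine genes, and TRIF leads to IRF3 and to interferon beta, which acts back on the same cells through STAT proteins and IRF9. A long exposure is known to be followed by feedback inhibition, by a shift of metabolism toward glycolysis, and by arrest of the cell cycle in cultures that M-CSF had kept dividing.

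The libraries were of similar depth. The estimates, which assume reads of 50 nt, were 21810000 mapped reads for WT at 0 h, 21840000 at 12 h and 21970000 at 24 h, so that 1 FPKM of a transcript of 1000 nt stood for about 20.9 reads. All 15 macrophage markers were measured, with a summed level of 15358 FPKM at 0 h and 20258 FPKM at 24 h. In that sum Lyz2 went from 5502 to 9015 FPKM. Of the 15, 6 were called higher and 1 lower (Mrc1, -2.66). Csf1r, the receptor for M-CSF, was at 496 FPKM at 0 h and 826 at 24 h, Adgre1 (F4/80) at 292.0 and 1284, and Cd68 at 1353 and 836. Markers of lymphocytes were near 0. Of 12 T cell markers only Il7r was measured, at 79.2 and 24.8 FPKM, with Cd3e at 0.03 in both libraries. Of 12 B cell markers only Cd79b passed, at 3.52 and 0.72, with Pax5 at 0 in both. Of 10 NK cell markers only Klrd1 passed, at 1.29 and 0.33, with Ncr1, Gzma and Gzmb at 0 in both. Neutrophil markers were low but present, with 12 of 14 measured and a summed level of 105 FPKM at 0 h and 131 at 24 h. Mmp8 and Ly6g were called higher, from 10.8 to 47.3 and from 0.10 to 3.26 FPKM. The granule genes Mpo, Elane, Ltf and Ngp were called lower, from between 2.21 and 9.66 FPKM to between 0.05 and 1.17. With a pseudocount of 5, Ly6g, Mpo, Elane and Ltf were not called. Retnlg was below 1 FPKM in both. Of 12 dendritic cell markers 3 were measured (Bst2, Ccr7 and Fscn1, all called higher), while Flt3, Zbtb46 and Xcr1 stayed below 1 FPKM. Stromal and endothelial markers summed to 9.40 and 17.6 FPKM over 5 measured of 14, mast cell and basophil markers to 1.70 and 1.76 over 2 of 12, erythroid and megakaryocyte markers to 118 and 262 over 3 of 14, and osteoclast markers to 106 and 170 over 7 of 10. In the megakaryocyte sum Pf4 went from 95.4 to 245 FPKM, while Ppbp (-0.47) and Itga2b (-0.27) were not called. In the osteoclast sum Acp5 went from 13.2 to 129 FPKM and Mmp9 from 0.66 to 4.39, while Dcstamp (-1.97) and Atp6v0d2 (-2.56) were called lower and Ctsk, Itgb3 and Nfatc1 were not called. The part of these other cells in the differences below was not tested. Setd2 was at 7.83, 8.68 and 7.51 FPKM in WT at 0, 12 and 24 h, and at 9.96, 9.16 and 5.11 FPKM in the libraries labelled KO, a gene-level value that does not check the labels.

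After 24 h with LPS, 883 genes (8.00% of those measured) were called higher and 1601 (14.5%) lower, where a call is a difference of 1 or more on the log2 scale, or 2-fold. The other 77.5% were not called. The larger differences leaned the other way, with 163 genes at least 8-fold higher and 147 at least 8-fold lower, and 37 and 12 at 32-fold. The median over all measured genes was -0.27, and 5% of genes lay below -1.72 and 5% above 1.46. Scaling the 24 h library by median of ratios or by trimmed mean added 0.28 to each log2 level and brought that median to -0.02 and -0.03. The calls then became 1156 higher and 1135 lower, or 1154 and 1135, so that the share of calls that were higher went from 35.5% as deposited to 50.5% and 50.4%. A list below is therefore read against the median of -0.27 and the shares of 8.00% and 14.5%. Of the called higher genes, 218 were below 1 FPKM at 0 h, of which 59 were listed at 0, and of the called lower genes 459 were below 1 FPKM at 24 h. Such genes passed the minimum only through the library in which they were high, so counts and medians over measured members are descriptions. The pseudocount also understates the differences of low genes. Just inside the rule lay Pkm (1.004) and Prkcb (1.001), and just outside it Ccl3 (0.997, from 21.8 to 44.6 FPKM) and Plagl2 (0.996, from 8.26 to 17.5 FPKM). On the lower side Rrp12 (-1, from 7.48 to 3.24 FPKM) lay inside and Zbtb8os (-0.999, from 41.6 to 20.3 FPKM) outside.

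**Figure D1:**
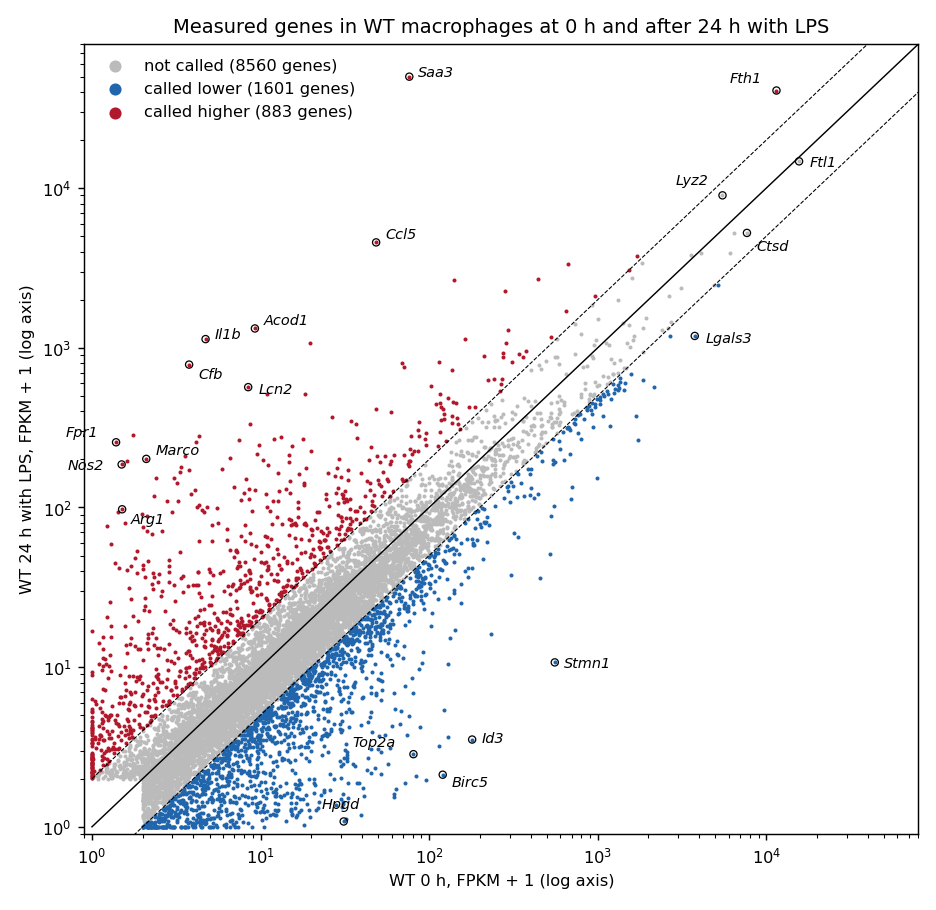
Level of each measured gene at 0 h (x axis) and after 24 h with LPS (y axis) in the WT libraries, as FPKM + 1 on log axes, 1 point a gene. The solid line marks equal levels and the dashed lines 2-fold. Saa3 stands alone at the top left at 49931 FPKM, with Il1b, Cfb and Ccl5 below it, while Birc5, Id3, Stmn1 and Hpgd lie far under the line.

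The most abundant transcript after LPS came from a gene that was modest before it. Saa3, an acute-phase apolipoprotein made by macrophages, was at 75.3, 17094 and 49931 FPKM at 0, 12 and 24 h, a difference of 9.35. It made up 0.0141% of the FPKM total at 0 h and 8.96% at 24 h. Fth1, the heavy chain of the iron store ferritin, went from 11502 to 40894 FPKM (1.83), or from 2.15% to 7.34% of the total. Together the 2 leading genes of each library took 5.09% of the total at 0 h, 8.23% at 12 h and 16.3% at 24 h. Ftl1, the light chain of ferritin, did not follow Fth1, at 15663, 7475 and 14723 FPKM at 0, 12 and 24 h (-0.09). Ferritin genes have many processed pseudogenes, so how reads were assigned among copies is uncertain. Ccl5, a chemokine described with its family, was also among the 10 most abundant genes at 24 h, at 4574 FPKM. Several abundant genes of the 0 h library were lower without a call. Ctsd, the lysosomal protease cathepsin D, was at 7683 and 5244 FPKM (-0.55), Apoe at 6136 and 3947 (-0.64), Gpnmb at 4885 and 2487 (-0.97), and Tmsb4x, an actin-binding peptide, at 6474 and 5258 (-0.30). Lgals3, the lectin galectin 3, was called lower, from 3767 to 1186 FPKM (-1.67), and Eef1a1, a translation factor, from 5156 to 2463 (-1.07, and -0.79 after trimmed-mean scaling). Lyz2, the macrophage lysozyme, was at 5502 and 9015 FPKM (0.71), close to its paralog Lyz1 in sequence.

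**Figure D2:**
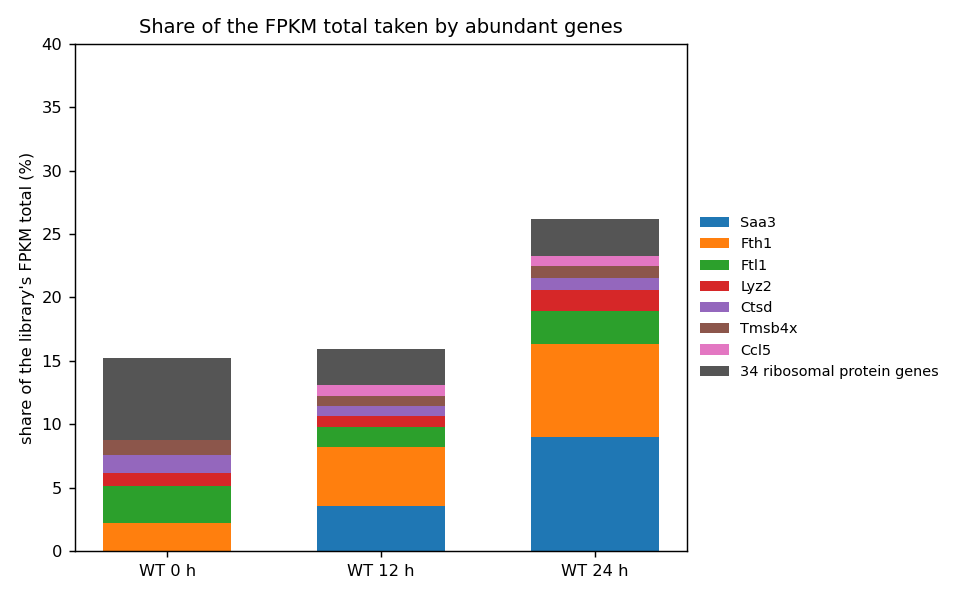
Share of each WT library's FPKM total (y axis, in percent) taken by 7 abundant genes and by 34 ribosomal protein genes, at 0, 12 and 24 h, stacked. Saa3 and Fth1 together reach 16.3% at 24 h, while the ribosomal protein genes are at 6.43% at 0 h and 2.89% at 24 h.

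Among genes that reached 5 FPKM, the 15 largest positive differences included cytokines, chemokines, acute-phase proteins, surface receptors and enzymes that use arginine or make itaconate. After Saa3 came Il1b (GRCm38 chromosome 2, 129364569 to 129371164), the fever-inducing cytokine interleukin 1 beta. It was at 3.72, 1123 and 1133 FPKM at 0, 12 and 24 h (7.91), from about 106 and 32537 reads. Cfb, complement factor B of the alternative pathway, was at 2.77, 502 and 784 FPKM (7.70). The formyl peptide receptors Fpr1 and Fpr2, which detect bacterial peptides, were below 1 FPKM at 0 h and at 255 and 284 FPKM at 24 h (7.53 and 7.36). Fpr1 rested on about 11 reads at 0 h, and its log2 ratio of FPKM was 9.35 with an exact binomial interval of 8.49 to 10.34. Such intervals are at 95%, use reads estimated from FPKM, and cover counting error only. Cxcl3, a neutrophil attractant, was at 0.62 and 193 FPKM (6.91). Lcn2, which binds bacterial iron carriers, was at 7.45 and 566 (6.07), and Hp, which binds free hemoglobin, at 1.40 and 153 (6.00). Slfn1, a Schlafen family gene that interferon induces, was at 0.43 and 92.9 (6.04). The remaining ranked genes (Acod1, Nos2, Marco, Ccl5, Ifit3 and Arg1) are described with their families. In the libraries labelled KO all 15 were called higher as well.

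The 15 largest negative differences were mostly genes of the dividing cell. Birc5 (GRCm38 chromosome 11, 117849237 to 117855743), the mitotic survival protein survivin, was at 119, 7.65 and 1.12 FPKM at 0, 12 and 24 h (-5.83). Only 3 of the 15 have a role that lies elsewhere or is less clear. Id3, which binds E proteins and keeps them off DNA, was at 179, 38.0 and 2.52 FPKM (-5.68). Hpgd, the enzyme that inactivates prostaglandins, was at 30.1, 0.39 and 0.08 FPKM (-4.85). Its 24 h level rested on about 3 reads, and its log2 ratio of -8.56 had a counting interval of -10.77 to -6.94. Pcp4l1, a small calmodulin-binding protein relative, was at 60.5, 2.49 and 0.60 FPKM (-5.26). Cdkn3, a phosphatase of cyclin-dependent kinases, ended at about 2 reads, with a log2 ratio of -8.02 and an interval of -11.27 to -6.36.

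The gene lists spread widely around the overall median, as the plot of list members shows. Interferon-stimulated genes and interferon-induced GTPases had the highest medians (3.22 and 3.21), followed by CC chemokines (2.08) and CXC chemokines (1.60). DNA replication (-3.21) and mitosis (-3.94) had the lowest.

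**Figure D3:**
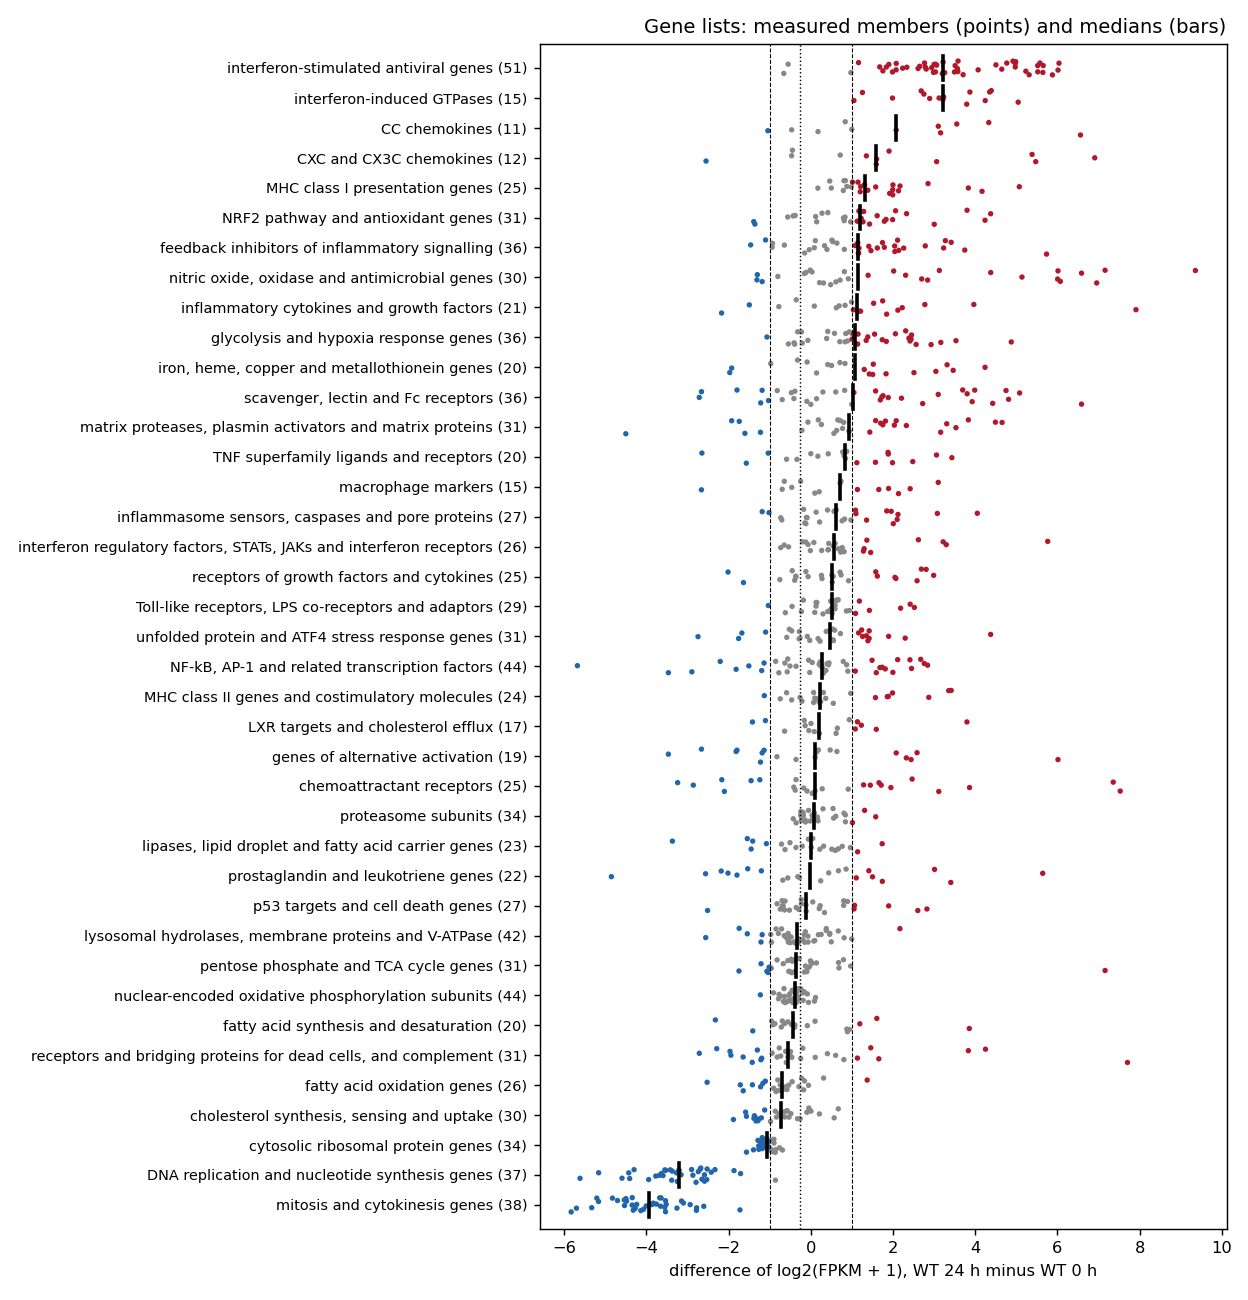
Difference of log2(FPKM + 1), WT 24 h minus WT 0 h (x axis), for measured members of 39 gene lists (y axis, number measured in brackets). Points are genes (red called higher, blue called lower), bars are list medians, dashed lines mark 2-fold and the dotted line the median of all genes at -0.27. The 2 proliferation lists lie apart on the left, and most members of the interferon lists lie right of 2-fold.

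The machinery that senses LPS was itself partly higher. Of 29 measured genes for Toll-like receptors, co-receptors and adaptors (32 listed), 6 were called higher and 1 lower (list median 0.51). Cd14, which hands LPS to TLR4, was at 135, 1122 and 728 FPKM at 0, 12 and 24 h (2.42). Tlr4 itself differed little, at 10.8, 10.2 and 11.9 FPKM (0.13), and so did its partner Ly96 (MD-2), at 15.6, 17.8 and 22.6 (0.51). The receptors of bacterial lipoproteins were higher, with Tlr2 at 31.2 and 85.4 FPKM (1.42) and Tlr1 at 9.09 and 44.9 (2.18). Tlr3, which senses double-stranded RNA, was at 2.41 and 6.25 FPKM (1.09, and 0.60 with a pseudocount of 5). Among the adaptors and kinases, Myd88 was at 40.1 and 92.2 FPKM (1.18) and Ikbke at 13.7 and 83.3 (2.52), whereas Ticam1 (TRIF) was not called (0.65). Cd180, a relative of TLR4 without its signalling domain, was the 1 lower call, from 98.9 to 47.8 FPKM (-1.03, and -0.76 after trimmed-mean scaling).

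Transcription factors split between the 2 directions. Of 44 measured genes for NF-kB, AP-1 and related factors (47 listed), 13 were called higher and 8 lower (list median 0.28). The subunits Rela (0.27), Nfkb1 (0.24) and Rel (0.43) were not called. Members of the noncanonical arm were, with Relb at 13.3, 48.9 and 45.0 FPKM (1.68) and Nfkb2 at 19.2, 124 and 66.3 (1.74). Bcl3, a nuclear partner of NF-kB p50 and p52, was at 10.7, 65.1 and 77.9 FPKM (2.76). Cebpb, a driver of acute-phase genes, was at 44.1, 212 and 239 FPKM (2.41), and Hif1a, which drives glycolytic genes, at 14.2, 76.9 and 82.3 (2.45). The AP-1 family members Batf2 (2.67) and Batf (2.11) and the ETS factor Ets2 (2.84) were called as well, while Jun (0.29), Junb (0.87) and Fos (-0.57) were not. On the lower side, the Id genes were called, Id3 as given above, Id1 from 22.8 to 2.20 FPKM (-2.89) and Id2 from 116 to 40.1 (-1.51). Id1 and Id2 were still at 23.7 and 127 FPKM at 12 h. Pparg, the lipid-sensing nuclear receptor of tissue macrophages, was at 19.6, 0.90 and 0.87 FPKM (-3.46). Cebpa, a factor of myeloid differentiation, was at 153, 23.3 and 32.4 FPKM (-2.20), and Myc, which drives growth, at 5.41, 2.37 and 0.82 (-1.82, and -0.84 with a pseudocount of 5).

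Inflammatory cytokines were higher at 24 h, but most were past their 12 h level. Of 21 measured cytokine genes (31 listed), 12 were called higher and 2 lower (list median 1.13). Il1a, the cell-bound relative of Il1b, was at 0.71, 160.5 and 25.7 FPKM at 0, 12 and 24 h (3.97). Tnf was at 7.58, 118 and 39.1 FPKM (2.22). Il6 was listed at 0 at 0 h, and at 9.55 and 2.36 FPKM at 12 and 24 h. Il12b, a subunit of interleukins 12 and 23, was at 0.32, 20.4 and 4.73 FPKM (2.12), and Il27 at 0.69, 12.98 and 5.07 (1.84). In all, 17 of the 21 were higher at 12 h than at 24 h. That count includes Igf1, Pdgfb, Hgf and Tgfb1, which had their highest level at 0 h. Il1b held its level, and Mif, a factor that inhibits macrophage migration, was at 266, 249.6 and 594 FPKM (1.16). Ifnb1, the gene of interferon beta, was listed at 0, then at 0.70 and 1.19 FPKM. Il10, the main anti-inflammatory interleukin, was at 1.13, 4.59 and 1.26 FPKM (0.09) and not called. The lower calls were growth factors, Pdgfb from 35.4 to 7.08 FPKM (-2.17) and Igf1 from 36.4 to 12.3 (-1.50). With a pseudocount of 5, Il6, Il12b, Il27, Il15, Il18 and Ifnb1 were no longer called.

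In the TNF superfamily, 8 of 20 measured genes (24 listed) were called higher and 3 lower (list median 0.83). Receptors and their adaptors led. Fas, the death receptor, was at 2.47, 18.9 and 36.4 FPKM (3.43), Traf1 at 2.10, 33.2 and 24.8 (3.06) and Tnfrsf1b, the second receptor of TNF, at 102, 845 and 575 (2.48). Tnfrsf1a, the first receptor, was not called, at 81.0 and 109 FPKM (0.42). Cd40, the costimulatory receptor, was at 3.61, 82.4 and 17.3 FPKM (1.99). The ligand Tnfsf9 (4-1BB ligand) was at 5.02 and 21.2 FPKM (1.88). The ligands among the lower calls were Tnfsf13 (APRIL) from 26.5 to 3.38 FPKM (-2.65), Tnfsf12 (TWEAK) from 98.7 to 32.6 (-1.57), and Tnfsf14 (-1.04), whose call was lost after trimmed-mean scaling.

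Chemokines of both main families were higher, and their receptors went both ways. Of 11 measured CC chemokines (17 listed), 6 were called higher and 1 lower. Ccl5, which attracts T cells and monocytes, was at 47.5, 4462 and 4574 FPKM at 0, 12 and 24 h (6.56). The monocyte attractants Ccl2 and Ccl7 were past their height, with Ccl2 at 11.7, 300.2 and 108 FPKM (3.10) and Ccl7 at 1.06, 91.8 and 23.1 (3.55). Ccl12 was at 0.28, 35.1 and 24.7 FPKM (4.33), and Ccl8 was listed at 0, then at 4.86 and 7.92 FPKM. Ccl22, which attracts regulatory T cells, was at 7.02, 190.1 and 32.9 FPKM (2.08). The MIP-type genes Ccl3 and Ccl4 had stood at 141 and 95.3 FPKM at 12 h and were not called at 24 h (0.997 and 0.84). After trimmed-mean scaling, or with the length trend removed, 8 CC chemokines were called higher, with Ccl3 and Ccl4 among them. Ccl6 was the 1 lower call (-1.04, and -0.78 after trimmed-mean scaling).

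Of 12 measured CXC and CX3C chemokines (14 listed), 8 were called higher and 1 lower. Cxcl10, a ligand of the T cell receptor CXCR3, was at 2.19, 360 and 140.5 FPKM (5.47), and its relatives Cxcl9 and Cxcl11 were at 3.64 and 2.52 FPKM at 24 h (1.90 and 1.60, both no longer called with a pseudocount of 5). The neutrophil attractants Cxcl2 (1.11, 149 and 87.0 FPKM, 5.38) and Cxcl1 (0.15, 14.7 and 8.60 FPKM, 3.06) stood beside Cxcl3. Cxcl16, a membrane-bound chemokine that also takes up oxidised lipoprotein, was at 76.0, 231 and 231 FPKM (1.59). Cxcl14 was lower, from 11.1 to 1.06 FPKM (-2.55).

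Chemoattractant receptors had 10 calls higher and 6 lower among 25 measured (28 listed), with a median of 0.11. Beside the formyl peptide receptors, Cmklr1, the receptor of chemerin, was at 1.28, 35.1 and 32.1 FPKM (3.86). Ccr7, which guides cells to lymph nodes, was at 2.71, 38.7 and 31.1 (3.11), and Gpr84, a receptor for medium-chain fatty acids, at 10.5, 195 and 62.5 (2.46). The inflammatory receptor Ccr1 (1.95) was called higher. Receptors that draw monocytes from the blood or hold them in tissue were called lower. Ccr2, the receptor of Ccl2, was at 22.6, 9.43 and 4.50 FPKM (-2.10). Cx3cr1, the fractalkine receptor, was at 51.3, 11 and 6.21 (-2.86), and Gpr183, an oxysterol receptor, at 16.5, 2.91 and 0.85 (-3.24). Cxcr4 was at 122, 19.4 and 44.1 FPKM (-1.45).

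The interferon response was broad. Of 51 measured interferon-stimulated antiviral genes (52 listed), 48 were called higher and 0 lower, against 8.00% higher among all genes, and their summed level was 1593, 12127 and 10593 FPKM at 0, 12 and 24 h. Ifit3, which binds viral RNA complexes, was at 3.34, 359 and 279 FPKM (6.01). Zbp1, a sensor of Z-form nucleic acid, was at 2.56, 224 and 208 FPKM (5.88), and Isg15, a ubiquitin-like modifier, at 9.86, 886 and 516 (5.57). Rsad2 (viperin) was at 2.35, 375 and 167 FPKM (5.64), Oasl1 at 2.74, 370.0 and 171 (5.52) and Mx1 at 1.61, 196 and 70.1 (4.77). Bst2 (tetherin) and Ifitm3, which block virus release and entry, were already present and reached the highest levels of the list, at 162 and 1138 FPKM (2.81) and at 441 and 2694 FPKM (2.61). In the list, 43 of 51 genes were higher at 12 h than at 24 h, and Bst2 and Ifitm3 were not among them. Only Ifi207 (0.97), Cgas (-0.55) and Tmem173 (STING, -0.66) were not called. Cgas senses cytosolic DNA and signals through Tmem173. Ifit3 and Ifit3b, the Ifi200 genes and the Oas1 genes have close copies, so reads may have been divided among them.

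All 15 measured interferon-induced GTPases (19 listed), which attack the membranes around intracellular microbes, were called higher. Each of the 15 was higher at 12 h than at 24 h, with summed levels of 46.7, 1529 and 626 FPKM at 0, 12 and 24 h. Gbp2 was at 3.61, 510.4 and 93.0 FPKM (4.35) and Gbp5 at 0.65, 109 and 30.2 (4.24). Irgm1 was at 15.7, 171 and 106 FPKM (2.69), and Iigp1 at 0.20, 23.1 and 10.3 (3.23). Gbp4 and Tgtp1 ended at 2.01 and 1.07 FPKM and were not called with a pseudocount of 5. The Gbp and Tgtp genes are close copies of each other.

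Upstream of these genes, 8 of 26 measured interferon regulatory factors, STATs, JAKs and interferon receptors (28 listed) were called higher and 0 lower. Irf7, which amplifies interferon production, was at 18.7, 1054 and 1067 FPKM (5.76). Stat2 was at 10.8, 150 and 109 FPKM (3.22), and Irf9, its DNA-binding partner, at 16.2, 43.9 and 40.9 (1.28). Irf1 (1.46) and Jak2 (2.62) were called, while Irf3 (-0.12), Irf5 (-0.01), Irf8 (0.44) and the receptor chains Ifnar1 (0.59) and Ifnar2 (0.73) were not.

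Promoter letters were read for these genes because STAT and IRF factors are known to bind the interferon-stimulated response element (ISRE) and NF-kB the kappa B motif. The windows come from RefSeq on GRCm38.p6 and span 250 bases before to 50 after a start site, with 8809 of the 11044 measured genes matched. The motif GAAANNGAAA, searched on both strands, stood for the ISRE, GGGANNTTCC for kappa B and TGANTCA for AP-1, and they were searched independently of each other. The ISRE letters were in 3.44% of all 32851 windows in the table. They were in 12.0% of 870 windows of genes called higher, in 2.96% of 1519 of genes called lower and in 2.58% of those not called. Of 57 windows of the interferon-stimulated genes and GTPases, 32 (56.1%) held them. The kappa B letters were in 1.47% of all windows, in 3.68% for genes called higher, in 1.51% for genes called lower, in 1.41% for those not called, and in 7 of 35 windows (20%) of the cytokine and chemokine genes. The AP-1 letters were in 10.2% of windows of genes called higher, in 5.07% for genes called lower, in 4.69% for those not called and in 7.81% of all windows, which include unmeasured genes. The following 3 windows are shown since they belong to the interferon-stimulated Cxcl10 and Ifit3 and to Saa3, the most abundant transcript at 24 h. Capitals mark the ISRE and kappa B letters on either strand, 5′ to 3′ along the gene.
Cxcl10 promoter: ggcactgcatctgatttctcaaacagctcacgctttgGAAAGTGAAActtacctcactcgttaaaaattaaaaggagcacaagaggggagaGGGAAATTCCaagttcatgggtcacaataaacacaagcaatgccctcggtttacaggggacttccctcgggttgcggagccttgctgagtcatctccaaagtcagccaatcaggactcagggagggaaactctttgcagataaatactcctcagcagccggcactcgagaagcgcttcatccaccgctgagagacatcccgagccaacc
Ifit3 promoter: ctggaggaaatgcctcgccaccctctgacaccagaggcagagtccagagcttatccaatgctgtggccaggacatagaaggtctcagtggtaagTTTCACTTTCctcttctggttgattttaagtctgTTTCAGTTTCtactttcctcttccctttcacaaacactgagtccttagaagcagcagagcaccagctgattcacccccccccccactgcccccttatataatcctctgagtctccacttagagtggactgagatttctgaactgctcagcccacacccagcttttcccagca
Saa3 promoter: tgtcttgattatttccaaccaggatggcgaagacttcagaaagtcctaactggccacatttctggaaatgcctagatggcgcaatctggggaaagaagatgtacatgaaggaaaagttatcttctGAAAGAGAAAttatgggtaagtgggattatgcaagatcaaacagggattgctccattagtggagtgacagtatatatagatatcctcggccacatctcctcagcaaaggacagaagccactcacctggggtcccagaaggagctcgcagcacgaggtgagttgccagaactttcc

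The window of Cxcl10 (chr5:92348840-92349139, minus strand) held the ISRE letters from base -213 to -204 and the kappa B letters from -159 to -150, counted from the start site. That of Ifit3 (chr19:34583279-34583578, plus strand) held the ISRE letters at 2 places, -156 to -147 and -122 to -113, both on the opposite strand. That of Saa3 (chr7:46715627-46715926, minus strand) held them once, at -125 to -116. Those of Il1b and Acod1 held neither motif, which says only that these letters are not in those windows. A match of letters is a description and not a binding site.

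Transcripts of many feedback inhibitors were higher. Of 36 measured members (39 listed), 21 were called higher and 2 lower (list median 1.16), and 29 of the 36 were higher at 12 h than at 24 h. Socs3 and Socs1, which block JAK and STAT signalling, were at 2.39, 254 and 179 FPKM (5.73) and at 1.29, 52.8 and 29.7 (3.74). Irak3, an inactive kinase that blunts Toll-like receptor signalling, was at 7.05, 80.4 and 76.8 FPKM (3.27). Nfkbia, which holds NF-kB in the cytoplasm, was at 60.6, 275 and 212 FPKM (1.79), and Tnfaip3 (A20) at 3.56, 58.5 and 17.8 (2.04). Il1rn, the antagonist of interleukin 1, was at 17.7, 1351 and 175 FPKM (3.23), above its 0 h level and far under that of 12 h. Cd274 (PD-L1), which restrains T cells, was at 7.86, 191 and 93.5 FPKM (3.41). Dusp1, a phosphatase of MAP kinases, was at 11.5, 115 and 54.2 (2.14). Zfp36, which destabilises cytokine transcripts, was at 52.4, 194 and 75.2 FPKM and not called (0.51). The lower calls were Sigirr (-1.46, and -0.58 with a pseudocount of 5), an inhibitory receptor, and Zfp36l2 (-1.10), which lost its call after trimmed-mean scaling (-0.83).

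Arginine and itaconate enzymes and antimicrobial proteins held many of the largest differences. Of 30 measured genes for nitric oxide, oxidase and antimicrobial functions (31 listed), 15 were called higher and 3 lower (list median 1.15). Acod1, which makes itaconate from a citrate cycle intermediate, was at 8.26, 1704 and 1321 FPKM at 0, 12 and 24 h (7.16). Nos2, the inducible nitric oxide synthase, was at 0.50, 200 and 185 FPKM (6.95), and its competitor for arginine, Arg1, at 0.51, 40.2 and 96.5 (6.01). So Arg1 went on to a higher level at 24 h than at 12 h while Nos2 did not. Ass1, which regenerates arginine, was at 12.3, 226 and 274 FPKM (4.38), the arginine transporter Slc7a2 at 2.04, 119 and 18.7 (2.70), and Gch1, which makes the cofactor of Nos2, at 5.07, 37.4 and 29.0 (2.31). Qdpr, which recycles that cofactor, was lower, at 84.8, 26.8 and 33.9 FPKM (-1.30). Of the phagocyte oxidase, the catalytic subunit Cybb was at 113, 796 and 816 FPKM (2.84) and the GTPase Rac2 at 84.5, 228 and 224 (1.39), while Ncf1 (0.91), Ncf4 (0.48) and Cyba (0.03) were not called. Slpi, an inhibitor of neutrophil proteases, was at 6.50, 81.2 and 263 FPKM (5.14), and Slc11a1, which exports metal from phagosomes, at 110, 290 and 446 (2.02). S100a9 was lower (-1.31) and its partner S100a8 was not called (0.82). The pair forms calprotectin, which neutrophils also make. Both are counted in the neutrophil marker sum of 105 and 131 FPKM, S100a8 at 34.8 and 62 and S100a9 at 34.2 and 13.2. That sum is therefore no separate reading of their source, which was not tested.

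Genes of iron, heme and antioxidant defence were often higher. Of 20 measured iron and copper genes (22 listed), 10 were called higher and 2 lower (list median 1.07). Hmox1, which breaks down heme, was at 139, 1326 and 2643 FPKM (4.24). Cp, the copper-carrying ferroxidase ceruloplasmin, was at 0.17, 17.6 and 11.9 FPKM (3.46), and Mt2, a metallothionein, at 14.03, 52.1 and 123 (3.04). Slc31a2 (2.51) and Slc31a1 (1.52), both copper transporters, were called. Slc40a1 (ferroportin), the iron exporter, was at 5.67, 4.77 and 10.9 FPKM and not called (0.83), nor was the transferrin receptor Tfrc (-0.32). Steap3, an endosomal iron reductase, was lower, at 40.5, 6.83 and 9.93 FPKM (-1.92). Metal importers went both ways, with Slc39a8 lower (-1.97, and -0.92 with a pseudocount of 5). Slc11a2 was called higher, at 17.4, 70.3 and 51.4 FPKM (1.51), and so was Slc39a14, at 4.93, 17.3 and 14.9 (1.42).

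Of 31 measured genes of the NRF2 pathway and antioxidant defence (32 listed), 18 were called higher and 2 lower (list median 1.19), and 25 of the 31 were higher at 24 h than at 12 h. Slc7a11, the cystine importer, was at 1, 50.3 and 40.5 FPKM (4.37). Peroxide-removing enzymes were among the calls, with Prdx1 at 662, 1158 and 3330 FPKM (2.33), Prdx5 at 281, 1690.4 and 2259 (3.003) and Prdx6 at 38.3, 58.1 and 163 (2.06). Sod2, the mitochondrial superoxide dismutase, was at 25.5, 455 and 368 FPKM (3.80), while cytosolic Sod1 was lower, at 765, 238 and 292 (-1.39). Gclm (1.20), Gsr (1.99), Srxn1 (1.27) and Cat (1.13) were called higher. Nfe2l2, which encodes NRF2 itself, was not called (0.27), nor were Nqo1 (0.81), Gclc (-0.38) or Gpx4 (-0.43).

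Of 27 measured inflammasome and cell death genes, 10 were called higher and 2 lower (list median 0.62). Mefv (pyrin) was at 1.85, 42.4 and 46.2 FPKM (4.05), Nod1, a sensor of cell wall peptides, at 2.49, 27.3 and 28.5 (3.08), and Nlrp3 at 6.18, 54.5 and 24.8 (1.85). Casp4, the mouse sensor of cytosolic LPS, was at 6.67, 53.7 and 32.4 FPKM (2.12), and Ninj1, which ruptures membranes late in cell death, at 115, 344 and 450 (1.96). Mlkl, the executioner of necroptosis, was at 9.48, 74.2 and 43.9 (2.10). Casp1 (0.98), Gsdmd (0.76), Aim2 (-0.11) and the adaptor Pycard (-0.73) were not called. The lower calls Nlrp1b (-1.18) and Gsdme (-1.02) were lost after trimmed-mean scaling (-0.99 and -0.79). With that scaling the list had 13 calls higher and 0 lower, with Casp1 and Gsdmd among the 13.

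Antigen presentation differed by class. Of 25 measured genes for class I presentation, 17 were called higher and 0 lower (list median 1.31). H2-K1, a classical class I heavy chain, was at 652, 1234 and 1706 FPKM (1.39), and B2m, its light chain, at 1704, 2966 and 3778 (1.15). H2-T23 (Qa-1) was at 115, 393 and 509 FPKM (2.13). The peptide transporter Tap1 was at 30.9, 179 and 126 FPKM (1.99) and its bridge Tapbp at 128, 643 and 485 (1.92). Nlrc5, the transactivator of these genes, was at 3.13, 21.1 and 15.4 (1.99). H2-Q6 and H2-Q7 were called too (4.16 and 5.07), but class I genes of this region are near-copies, so their reads are uncertain. Of the proteasome, 3 of 34 measured subunits were called higher and 0 lower (list median 0.07), a share of higher calls near the 8.00% of all genes. The 3 were the immunoproteasome subunits Psmb10 (1.58) and Psmb8 (1.01, and 0.95 at equal column totals) and the activator Psme2 (1.31). The immunoproteasome subunit Psmb9 (0.81) and the activator Psme1 (0.84) were not called.

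Class II genes were not called. H2-Ab1 was at 179, 299 and 263 FPKM (0.55), H2-Aa at 179.6, 195 and 149.6 (-0.26), the invariant chain Cd74 at 649, 712 and 680 (0.07) and the transactivator Ciita at 1.69, 5.34 and 2.46 (0.36). In the list of class II and costimulatory genes, 7 of 24 measured (27 listed) were called higher and 1 lower, none of the 7 a class II chain. Marchf1, a ubiquitin ligase that removes class II and CD86 from the surface, was at 6.22, 67.8 and 51.8 FPKM (2.87). Cd86 had reached 23.6 FPKM at 12 h and was at 6.45 at 24 h (0.97), and Cd80 was not called (0.13). Icosl was called lower (-1.13, and -0.91 after trimmed-mean scaling).

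Surface receptors were exchanged. Of 36 measured scavenger, lectin and Fc receptors (39 listed), 18 were called higher and 6 lower (list median 1.02). Marco, a scavenger receptor for bacteria, was at 1.10, 70.0 and 201 FPKM at 0, 12 and 24 h (6.58). Msr1, its relative, was at 117, 515 and 352 (1.58). Clec4e (Mincle), which binds mycobacterial glycolipid, was at 17.4, 914 and 515 FPKM (4.81), and Clec4n (Dectin-2) at 16.8, 77.5 and 269 (3.93). The high-affinity antibody receptor Fcgr1 was at 47.3, 461 and 413 FPKM (3.10) and Fcgr4 at 13.8, 241 and 191 (3.69), and the inhibitory Fcgr2b was at 24.0, 463 and 164 (2.72). Siglec1, which binds sialic acid, was at 8.25, 92.1 and 128 (3.80). Lower receptors included Mrc1, the mannose receptor, at 23.6, 10.4 and 2.89 FPKM (-2.66), and Trem2, a lipid receptor of tissue macrophages, at 997, 262 and 151 (-2.71). Cd36, which takes up fatty acids and oxidised lipoprotein, was at 109, 107 and 109 FPKM (0.00).

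Genes that help take up dead cells were more often called lower than higher, while the complement factors C3, Cfb and Cfp were called higher. Of 31 measured members of that list (37 listed), 6 were called higher and 9 lower, and the median was -0.56 beside -0.27 over all genes. C3, the central complement protein, was at 9.36, 150.0 and 196 FPKM (4.25), and Cfp (properdin) at 136, 206 and 375 (1.46). The C1q genes C1qa, C1qb and C1qc were not called (-0.25, -0.49 and -0.50). Gas6, which bridges dying cells to the receptors AXL and MERTK, was at 131, 13.9 and 25.96 FPKM (-2.29). Of those receptors, Mertk was at 7.73, 8.56 and 18.2 FPKM (1.13, and 0.86 with a pseudocount of 5) and Axl, after 66.2 FPKM at 12 h, at 25.3 and 16.9 (-0.56). Havcr2 (TIM-3) was at 28.0, 6.26 and 6.43 FPKM (-1.97), Itgb5, an integrin chain, at 182, 38.3 and 57.4 (-1.65) and Elmo1, part of the engulfment machinery, at 21.4, 5.37 and 7.34 (-1.42). Thbs1, which can bridge phagocytes to dying cells, was at 4.62, 366 and 79.1 (3.83).

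Genes used as marks of alternative, interleukin 4-type activation went in both directions, with 5 of 19 measured (26 listed) called higher and 7 lower, and a median of 0.11 that turned to -0.074 with the length trend removed. Arg1, Il4ra (15.6, 111 and 98.7 FPKM, 2.58), Vegfa (4.18, 12.4 and 27.1, 2.44), Mmp13 and Ccl22 were higher. Pparg, Mrc1, Myc, Clec10a (-1.79, and -0.74 with a pseudocount of 5), Chil3 (-1.18), Egr2 (-1.14) and Mmp12 (-1.22) were lower. The last 3 were no longer called after trimmed-mean scaling (-0.94, -0.98 and -0.95).

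Among 25 measured receptors of growth factors and cytokines (29 listed), 8 were called higher and 2 lower (list median 0.52). Met, the receptor of hepatocyte growth factor, was at 0.87, 44.5 and 12.1 FPKM (2.81). Il18bp, a soluble inhibitor of interleukin 18, was at 3.15, 33.3 and 31.9 (2.99), Il15ra at 1.89, 21.5 and 17.6 (2.69) and Csf3r, the receptor of G-CSF, at 11.5, 68.2 and 37.5 (1.62). Tgfbr1, the type 1 receptor of TGF-beta, was at 38.6, 14.9 and 8.81 FPKM (-2.01). Il7r, the interleukin 7 receptor, was at 79.2, 82.2 and 24.8 FPKM (-1.64), so its lower level was first seen at 24 h.

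Of 31 measured matrix proteases, plasmin activators and matrix proteins (36 listed), 14 were called higher and 5 lower (list median 0.93), and 24 of the 31 were higher at 12 h than at 24 h. Mmp14, a membrane-bound collagenase, was at 10.9, 426 and 268 FPKM (4.49). Mmp13, a secreted collagenase, peaked among the 3 times at 12 h, at 3.59, 433 and 21.99 (2.32). Serpinb2, an inhibitor of plasminogen activators, was at 0.71, 125 and 42.0 FPKM (4.65), while Plau, the urokinase it inhibits, was lower, at 121, 17.4 and 4.41 (-4.50). Timp1 was higher, at 5.33, 76.5 and 61.6 (3.31), and Timp2 lower, at 95.5, 28.4 and 27.9 (-1.74), both inhibitors of metalloproteases. F10, coagulation factor X, was at 5.33, 142 and 72.1 (3.53). Spp1 (osteopontin) was at 2161, 1016 and 569 FPKM (-1.92).

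Prostaglandin and leukotriene genes went both ways, with 7 of 22 measured (25 listed) called higher and 7 lower. The median was -0.02, and 0.25 after either scaling. The inducible enzymes of prostaglandin E2 were higher, Ptgs2 (COX-2) at 0.27, 42.5 and 9.23 FPKM (3.01) and Ptges, the synthase, at 2.07, 432 and 152 (5.64). The constitutive Ptgs1 was lower, at 8.51, 1.87 and 1.10 (-2.18), and so were Hpgds, which makes prostaglandin D2, at 59.5, 22.2 and 9.27 (-2.56), and Hpgd. Of the leukotriene branch, Alox5 was at 4.98, 0.10 and 0.48 FPKM (-2.01, and -0.86 with a pseudocount of 5) and Ltc4s at 9.38, 1.16 and 1.99 (-1.80), while Alox5ap (-0.68) and Lta4h (-0.56) were not called. Receptors for prostaglandin E2 and I2 were mixed. Ptger2 was higher, at 3.12 and 12.8 FPKM (1.74), and so was Ptgir, at 4.82 and 14.5 (1.41, and 0.99 with a pseudocount of 5). Ptger3 was called lower, at 2.62 and 0.25 FPKM (-1.53), and Ptger4 was not called (0.44). Pla2g7, which cleaves platelet-activating factor, was at 70.3, 273 and 754 FPKM (3.40).

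Glycolysis was the metabolic list with most higher calls, 20 of 36 measured glycolysis and hypoxia genes (37 listed) and 1 lower, with a median of 1.08, and 30 of the 36 were higher at 24 h than at 12 h. Pfkfb3, which makes the activator of phosphofructokinase, was at 4.89, 147 and 172 FPKM (4.88). The glucose importer Slc2a1 was at 17.1, 114 and 136 FPKM (2.93) and the lactate exporter Slc16a3 at 36.0, 200.1 and 331 (3.16). The abundant enzymes differed by about 2-fold. Aldoa was at 961, 1154 and 2120 FPKM (1.14), Pgk1 at 373, 581 and 950 (1.35) and Ldha at 526, 752 and 1169 (1.15), with Gapdh (0.89) and Eno1 (0.93) short of a call. Gpi1 (1.01) and Pkm (1.004) were lost at equal column totals (0.95 and 0.94). Targets of HIF-1 outside glycolysis were called too, with Egln3 at 0.56, 9.15 and 17.0 FPKM (3.53) and Bnip3 at 12.3, 63.4 and 77.8 (2.56), but Car9 (-0.54) and Ndrg1 (-0.41) were not.

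Of 31 measured pentose phosphate and citrate cycle genes, 5 were called lower and 1, Acod1, higher, with a median of -0.37. That share of lower calls is near the 14.5% of all genes, and the median is near -0.27. Idh2, the mitochondrial isocitrate dehydrogenase that makes NADPH, was at 58.0, 10.7 and 16.6 FPKM (-1.75), the 1 lower call that stayed after trimmed-mean scaling. Fh1 (-1.21), Suclg2 (-1.07), Mdh1 (-1.04) and Idh3a (-1.01) lost theirs. Cs (-0.09) and Ogdh (-0.03) differed little. Of the pentose phosphate enzymes, G6pdx was at 80.5, 127 and 159 FPKM (0.97) and Pgd at 270, 303 and 470.0 (0.80). Of 44 nuclear genes for oxidative phosphorylation, 0 were called higher and 1 lower (Ndufs8, -1.23, and -0.96 after trimmed-mean scaling), and their median of -0.39 lay near that of all genes.

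Of 30 measured genes of cholesterol synthesis, sensing and uptake (31 listed), 10 were called lower and 0 higher, with a median of -0.71. Idi1, an isomerase of the pathway, was at 37.4, 16.9 and 11.8 FPKM (-1.58), Sqle, the squalene epoxidase, at 47.8, 23.3 and 15.5 (-1.57), and Hmgcs1 at 39.7, 24.2 and 15.7 (-1.29). The regulators Srebf2 (-0.59) and Scap (-0.57) were not called. Insig1 (-1.20) and Msmo1 (-1.12) lost their calls after trimmed-mean scaling (-0.94 and -0.85).

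In fatty acid synthesis, 3 of 20 measured genes (24 listed) were called higher and 2 lower (list median -0.43). Acsl1, which activates long-chain fatty acids, was at 13.7, 239 and 212 FPKM (3.85). Fads2, a desaturase of polyunsaturated fatty acids, was at 14.8, 1.43 and 2.17 (-2.32), and Fasn, fatty acid synthase, at 14.2, 5.83 and 4.73 (-1.41, and -0.98 with a pseudocount of 5). Scd2, a stearoyl-CoA desaturase, was at 11.8, 7.64 and 23.5 (0.94).

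Of 17 measured LXR targets and efflux genes (21 listed), 5 were called higher and 2 lower (list median 0.21). Abca1, the exporter of cholesterol to apolipoprotein A1, was at 1.47, 38.2 and 33.4 FPKM (3.80), and Nr1h3, which encodes LXR alpha, at 23.8, 70.7 and 73.8 (1.59). Ch25h, which makes an oxysterol, was at 0.31, 12.0 and 2.07 (1.23, and 0.41 with a pseudocount of 5). Abcg1 was at 10.3, 5.62 and 16.3 and not called (0.61). Cyp27a1, another oxysterol enzyme, was lower, at 7.29, 0.49 and 2.10 (-1.42, and -0.79 with a pseudocount of 5).

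Lipases, droplet proteins and carriers had 2 calls higher and 5 lower among 23 measured (31 listed). Their median of 0.00 changed sign with a minimum of 5 FPKM, at equal totals and with the length trend removed. Lpl, lipoprotein lipase, was at 524, 124 and 49.9 FPKM (-3.37), and Lipa, the lysosomal lipase, at 545, 158 and 186 (-1.54). Fabp4, a fatty acid carrier, was at 86.2, 37.3 and 30.9 (-1.45), while its relative Fabp5 was at 922, 389 and 885 (-0.06). Hilpda, an inhibitor of the lipase ATGL, was at 6.21, 38.4 and 14.9 (1.14, and 0.83 with a pseudocount of 5). Plin2, the main droplet coat, was at 487, 456 and 297 FPKM and not called (-0.71). Of 26 measured fatty acid oxidation genes (30 listed), 1 was called higher and 7 lower (list median -0.70). Acot1 was at 7.04, 0.25 and 0.40 (-2.52), Etfb at 107, 36.1 and 33.7 (-1.64) and Hadh at 31.4, 6.95 and 11.1 (-1.42). The peroxisomal thiolase Acaa1a was higher, at 74.6, 123 and 195 (1.37). Cpt1a, which admits fatty acids to mitochondria, was not called (-0.54).

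Proliferation genes were lower without exception in mitosis. All 38 mitosis and cytokinesis genes were measured and called lower, against 14.5% of all genes, and their summed level was 1960, 209 and 54.0 FPKM at 0, 12 and 24 h. All 38 were lower at 24 h than at 12 h. Top2a, which untangles chromosomes, was at 79.8, 11.6 and 1.85 FPKM (-4.82). The cyclins Ccnb2 and Ccna2 were at 62.8, 3.44 and 0.73 (-5.20) and at 60.9, 4.04 and 0.54 (-5.33), and the kinase Plk1 at 39.4, 2.53 and 0.74 (-4.54). Stmn1, which takes microtubules apart, was at 556, 45.2 and 9.71 (-5.70), the highest 0 h level of the list. Mki67, the common label of cycling cells, was at 44.1, 14.8 and 2.05 (-3.88). Ccnd1, the cyclin that M-CSF signalling induces, was at 53.5, 11.2 and 2.78 (-3.85).

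Of 37 DNA replication and nucleotide synthesis genes, all measured, 36 were called lower and 0 higher, with a median of -3.21. Rrm2, which makes deoxynucleotides, was at 94.4, 7.14 and 0.95 FPKM (-5.61), and Mcm5, of the replicative helicase, at 72.9, 16.4 and 2.76 (-4.30). Pcna, the polymerase clamp, was at 550.3, 161 and 102 (-2.42). E2f1, which drives these genes, was the 1 member not called, at 45.0, 29.5 and 24.3 (-0.86). Among p53 targets and death regulators, 5 of 27 were called higher and 1 lower, and the median of -0.12 became 0.15 after either scaling. Cdkn1a (p21), which halts the cell cycle, was at 125, 187 and 260 FPKM (1.05, and 0.99 at equal column totals). The inhibitors of cell death Birc3 (8.42, 53.9 and 56.2 FPKM, 2.60) and Cflar (10.1, 72.1 and 40.3, 1.89) were higher, and Sesn1, a p53 target, was lower, at 51.1, 4.88 and 8.14 (-2.51).

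For the proliferation genes, the letters of the CCAAT box (CCAAT, which NF-Y binds) and of the cell cycle homology region (CHR, TTTGAA, which the DREAM complex binds) were searched on both strands. These 2 motifs were chosen after the values had been seen. The CCAAT letters were in 26 of 32 windows of mitosis genes (81.3%), in 55.3% of 38 windows of replication genes, in 44.9% of windows of genes called lower, in 37.2% of those not called and in 37.4% of all windows. The CHR letters were in 24 of the 32 mitosis windows (75%), in 13.2% of the replication windows, in 17.7% of windows of genes called lower, in 11.4% of those not called, in 12.3% of those of measured genes and in 17.9% of all windows. They were also in 17 of 57 windows (29.8%) of the interferon-stimulated genes and GTPases, so they are not particular to mitosis genes. The following 2 windows are shown as mitosis genes among the 15 lowest. Capitals mark the CCAAT and CHR letters on either strand, 5′ to 3′ along the gene.
Ccnb2 promoter: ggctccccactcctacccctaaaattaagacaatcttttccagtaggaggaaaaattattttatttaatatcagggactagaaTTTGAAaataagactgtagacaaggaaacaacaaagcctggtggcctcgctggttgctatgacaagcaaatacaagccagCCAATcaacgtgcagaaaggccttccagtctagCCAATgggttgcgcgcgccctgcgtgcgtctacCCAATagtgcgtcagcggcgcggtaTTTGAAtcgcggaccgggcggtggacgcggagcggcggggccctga
Top2a promoter: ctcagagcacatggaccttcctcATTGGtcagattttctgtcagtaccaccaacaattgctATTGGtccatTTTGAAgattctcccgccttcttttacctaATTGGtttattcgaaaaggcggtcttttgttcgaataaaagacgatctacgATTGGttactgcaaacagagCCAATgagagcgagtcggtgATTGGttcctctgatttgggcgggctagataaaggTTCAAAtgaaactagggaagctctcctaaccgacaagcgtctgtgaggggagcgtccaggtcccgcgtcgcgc

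The window of Ccnb2 (chr9:70421505-70421804, minus strand) held 3 CCAAT matches, starting at bases -87, -54 and -21 from the start site, and 2 CHR matches, from -167 to -162 and from base 4 to 9. That of Top2a (chr11:99024140-99024439, minus strand) held 6 CCAAT matches and 2 CHR matches, the nearer one from -23 to -18. The window of Birc5 held neither motif.

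Stress genes of the ATF4 pathway were divided between its arms. Of 31 measured genes of the unfolded protein and ATF4 responses (32 listed), 10 were called higher and 4 lower (list median 0.46). Atf4 itself was at 74.7, 177 and 180.4 FPKM (1.26), Ddit3 (CHOP) at 19.5, 43.5 and 54.0 (1.42) and Ddit4, an inhibitor of mTORC1, at 1.66, 10.2 and 12.1 (2.30). The serine synthesis enzymes that ATF4 is known to drive were lower, Psat1 at 34.1, 14.9 and 4.24 (-2.74) and Phgdh at 50.2, 15.7 and 15.04 (-1.68), with Shmt2 at 45.0, 11.7 and 12.6 (-1.76). Mthfd2, of the same one-carbon pathway, was higher, at 29.0, 61.1 and 75.5 (1.35). The chaperones Hspa5 (0.38) and Hsp90b1 (0.46) were not called.

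Of 42 lysosomal genes, all measured, 1 was called higher and 5 lower, and the median of -0.34 lay near that of all genes. Ctsc, which activates serine proteases, was at 31.9, 190 and 147 FPKM (2.17). The lower calls included 2 subunits of the proton pump, Atp6v0d2 at 48.5, 16.02 and 7.42 (-2.56) and Atp6v0a1 at 94.1, 25.8 and 27.4 (-1.74), and Tfeb, which drives lysosomal genes (-1.21, and -0.95 after trimmed-mean scaling). Ribosomal protein genes lay together at a median of -1.07, with 24 of 34 called lower and 0 higher. That count depends on the scaling and on transcript length, with 3 of 34 called after trimmed-mean scaling (median -0.79) and 8 after the trend over length was removed (median -0.86). Over 8258 genes that reached 5 FPKM, the difference went with transcript length at a Spearman rho of 0.15, with a median of -0.59 for transcripts up to 512 nt and of -0.01 for those over 8192 nt. Of 20 reference genes used to normalise other assays, 2 were called higher and 4 lower. Gapdh was at 1840 and 3416 FPKM (0.89), Actb at 2657 and 2102 (-0.34), Hprt at 144 and 53.5 (-1.41) and Tbp at 7.61 and 5.99 (-0.30).

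The 12 h library of the same genotype was placed between the 2 as a further reading. The 12 and 24 h differences share the 0 h library, so only levels are compared. Interferon-induced GTPases (15 of 15 members), interferon-stimulated genes (43 of 51), feedback inhibitors (29 of 36) and cytokines (17 of 21) were mostly higher at 12 h than at 24 h. Glycolysis and hypoxia genes (30 of 36) and NRF2 genes (25 of 31) were mostly higher at 24 h. Over all 11044 measured genes, 5430 were higher at 12 h and 5543 at 24 h. The FPKM total was 477480 at 12 h and 557250 at 24 h. Saa3, Marco, Arg1, Slpi and Hmox1 were among the genes with their highest level at 24 h, and Il1rn, Ccl22, Mmp13 and Gbp2 among those that had come down more than 4-fold from 12 h.

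**Figure D4:**
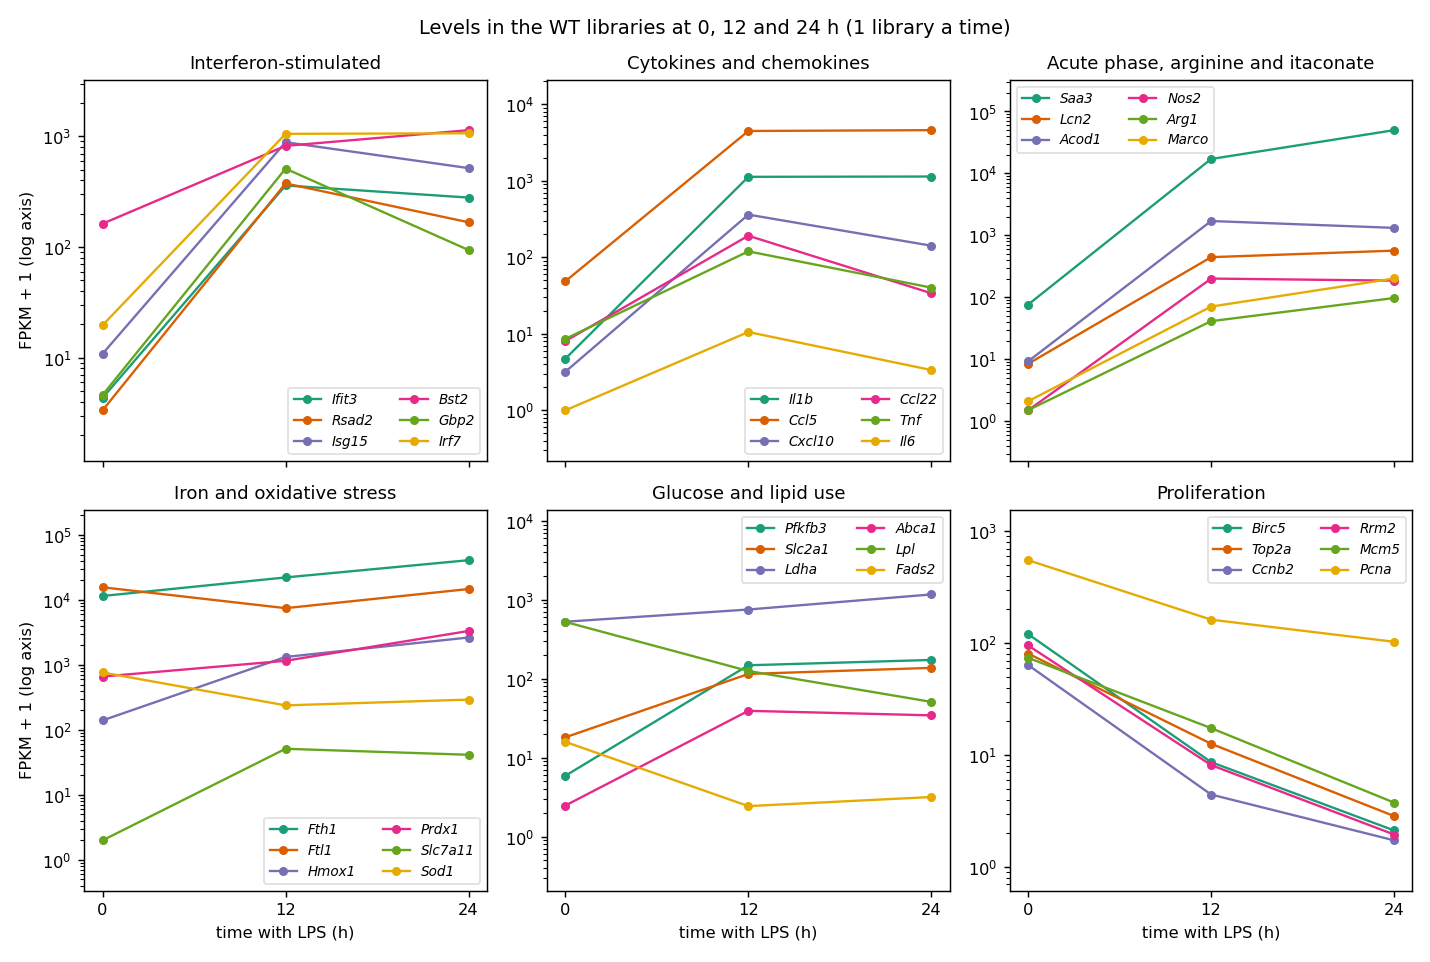
Levels in the WT libraries (y axis, FPKM + 1, log axis) at 0, 12 and 24 h with LPS (x axis), 1 library a time, for 6 genes in each of 6 groups. Lines join the libraries and carry no error. Gbp2 and Ccl22 peak at 12 h (510.4 and 190.1 FPKM), Saa3 goes on to 49931 FPKM at 24 h, and all 6 proliferation genes are lower at each later time.

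The same contrast was read in the libraries labelled Setd2-KO, which share no library with WT. There, 872 genes (7.81% of 11159 measured) were called higher and 2489 (22.3%) lower. The genes called higher in both were 602, or 68.2% of the WT calls and 69.0% of the KO calls. Those called lower in both were 1121, or 70.0% of the WT calls and 45.0% of the KO calls. Opposite calls were few, 13 in each direction, and none of them was in a list above. Of those 26, the genes that are neither predicted nor small RNA genes were Cbl, Plxna1, Rsc1a1, Sorl1, Spred2 and Wdfy2, named after their values were seen. The trend over transcript length had the other sign in KO, with a rho of -0.37 over 8256 genes, so differences between the genotypes in families of short or long transcripts move with length as well. Ribosomal protein genes, for example, had a median of -0.41 in KO. The WT and KO medians were 3.22 and 1.96 for interferon-stimulated genes, 3.21 and 2.52 for GTPases, 2.08 and 2.53 for CC chemokines, -3.94 and -3.93 for mitosis, and -0.71 and -1.54 for cholesterol synthesis. With 1 library a group, no test of such a difference is possible. Among the ranked genes, Id3 stood at 101, 37.2 and 18.5 FPKM in KO at 0, 12 and 24 h (-2.39 against -5.68 in WT), and Ifit3 at 42.1, 495 and 616 (3.84 against 6.01). Lyz2 was at 17.7, 36.0 and 54.5 FPKM in the 3 libraries labelled KO, far under its WT levels.

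**Figure D5:**
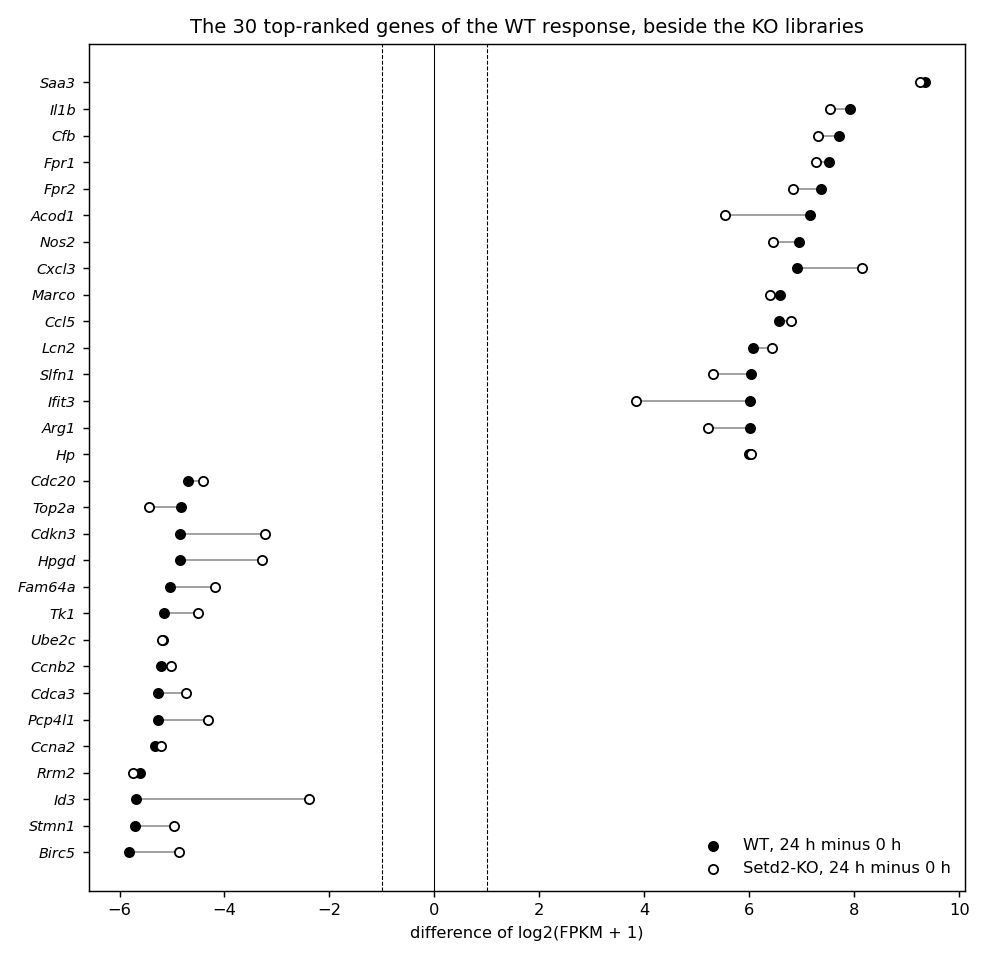
Difference of log2(FPKM + 1), 24 h minus 0 h (x axis), for the 15 highest and 15 lowest ranked genes of the WT response (y axis), in WT (filled points) and in the libraries labelled Setd2-KO (open points), 1 library a group and time. All 30 lie beyond 2-fold in the same direction in both, and Id3 (-5.68 and -2.39) and Ifit3 (6.01 and 3.84) have the widest gaps.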

How the data were processed

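RNA of bone marrow-derived macrophages was extracted with TRIzol and sequenced on a BGISEQ-500, per the labels' protocols. The deposited table holds FPKM values per gene, 1 column a library, per the file headers. Bowtie2, RSEM and the mouse build GRCm38 are named in the submitters' processing notes, with no versions or settings. Of 17905 rows, 1 names no gene and was left out, 25 symbols that had turned into dates were restored, and 2 cells outside the WT columns that hold no number were treated as missing. The difference was log2(FPKM + 1) at 24 h minus that at 0 h, for genes at 1 FPKM or more in either library, and a call was a difference of at least 1. With 1 library a group no test was made. The rule for named genes took the 15 highest and 15 lowest called genes that reached 5 FPKM in either library, without predicted, clone and microRNA genes, the 10 most abundant genes of either library, and of each gene list its called members, up to 4 others with the largest differences and its defining members. Some further members that were not called were named after their values were seen. The members and lists were chosen with earlier results of these data known. Reads were estimated from FPKM, transcript length and a depth read from the low values, assuming reads of 50 nt, and gave exact 95% binomial intervals. The alternatives were pseudocounts of 0.1 and 5, no minimum and a minimum of 5 FPKM, 1.5-fold and 3-fold rules, median-of-ratios and trimmed-mean scaling, equal column totals, and removal of the trend over length. Scripts were tested on simulated data and used Python 3.11.15, numpy 2.4.6, scipy 1.17.1, pandas 2.3.3, statsmodels 0.14.6 and matplotlib 3.10.9. Results for some genes are not reported here.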

Additional observations from a re-analysis of the deposited data

How the results depend on the processing

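No paired analysis was possible because each group holds 1 library, and no replicate could be left out. The counts of 883 genes called higher and 1601 lower became 550 and 821 with a pseudocount of 5, 1413 and 3242 with a 1.5-fold rule, and 504 and 665 with a 3-fold rule. With a pseudocount of 0.1 they were 1033 and 2067, with a minimum of 5 FPKM 722 and 1260, at equal column totals 841 and 1739, and with the length trend removed 874 and 1522. Some list medians changed sign. That of eicosanoid genes, -0.02, was 0.34 with a minimum of 5 FPKM and 0.25 after median-of-ratios or trimmed-mean scaling. That of alternative activation, 0.11, was -0.074 with the length trend removed. That of lipid storage, 0.00, was -0.029 with a minimum of 5 FPKM, -0.060 at equal totals and -0.048 with the length trend removed. That of p53 targets and death regulators, -0.12, was 0.15 after either scaling. The cause was not tested. Of the 548 genes followed, 52 lost their call after trimmed-mean scaling, 88 with a pseudocount of 5 and 29 with the length trend removed. Trimmed-mean scaling raises every 24 h level, so it also added higher calls. They went from 17 to 22 in class I presentation and from 18 to 22 in the NRF2 list. In glycolysis and hypoxia they went from 20 to 24, and in the TNF superfamily from 8 to 11. Depth limits low genes most, since 3 reads of a transcript of 1000 nt stand for 0.144 FPKM.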
